A study of Homo sapiens with 12 samples.

Results

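The genes described here are 48 genes of the cellular response to DNA double-strand breaks and of the Fanconi anaemia pathway, out of 58735 genes in the count table. They were chosen by name from their known functions and not by a cut on their values, with earlier results of these data known. The list held 33 genes of homologous recombination and the Fanconi pathway, 7 genes of end joining (PRKDC, XRCC4, XRCC5, XRCC6, LIG4, NHEJ1, DCLRE1C) and 4 signalling kinases (ATM, ATR, CHEK1, CHEK2). Polymerase theta (POLQ) and a group of 3 genes for the break mark and ATR activation (H2AX, ATRIP, TOPBP1) were counted apart.

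FDX2-iKO ES2 cells, derived from the ovarian cancer line ES2, lack the endogenous FDX2 gene and express HA-tagged FDX2 from a TetON construct only while doxycycline (Doxy) is present. FDX2 is a mitochondrial ferredoxin used to assemble iron-sulfur clusters. Per the methods the cells were clonal, and results shown without a clone name are from a single clone. Cells of the 20% O2 + Doxy and 20% O2 wo Doxy groups were grown for 6 days at 20% O2 with or without Doxy. Cells of the 3% O2 + Doxy and 3% O2 wo Doxy groups had 4 days at 20% O2 followed by 3 days at 3% O2. All 4 groups carried the knockout and the transgene, and each had 3 libraries of polyadenylated RNA. Removal of Doxy, here called FDX2 loss, cannot be told apart from absence of the drug itself, and the oxygen level cannot be told apart from the additional day in culture. FDX2 itself had 2 to 13 counts per library and gave no check of the groups.

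Double-strand breaks are repaired by 2 main routes. End joining binds the broken ends with the Ku heterodimer (XRCC5 and XRCC6), recruits the kinase DNA-PKcs (PRKDC) and seals them with LIG4 and XRCC4. Homologous recombination resects the ends, uses BRCA1, PALB2 and BRCA2 as mediators, and copies the sister chromatid, so it acts mainly in the S and G2 phases of the cell cycle. The Fanconi proteins recognise and unhook interstrand crosslinks and hand the resulting break to recombination. ATM and ATR are the kinases at the top of break and replication-stress signalling, and both phosphorylate the histone variant H2AX beside the lesion.

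Between 24958386 and 34313637 counts were assigned to genes in each library (median 29621780), 16891 genes passed the filter on low counts, and the biological coefficient of variation was 16.3%. Of the 48 members, 47 passed this filter. NHEJ1, which encodes the end joining factor XLF, had 1 to 12 counts per library and was not tested, and 65.4% of its exonic bases lie under another annotated gene on the same strand. Epithelial EPCAM was at 0 to 0.119 CPM (counts scaled to the library total), KRT18 at 376 to 669 CPM and the mesenchymal marker VIM at 2070 to 4180 CPM. In 3 libraries (20% O2 + Doxy replicate 1, 3% O2 + Doxy replicate 3 and 3% O2 wo Doxy replicate 2) GC-rich genes stood higher than GC-poor genes. Each gene was taken relative to its own mean over all libraries. The median of the top GC decile minus that of the bottom decile was 0.443 to 0.508 on the log2 scale, against -0.392 to 0.17 in the other libraries. The same difference between GC-rich and GC-poor genes was -0.251, -0.223 and -0.392 in 20% O2 wo Doxy. It was 0.039, 0.494 and 0.17 in 3% O2 wo Doxy, with no overlap. Between these groups it therefore cannot be told apart from the oxygen level. Since several members are GC-rich, results are given below with and without the 3 libraries named above, or with a correction for GC content where that mattered.

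The promoters of a few members are shown here because the results below turn on these genes or describe them in full: H2AX (the largest decrease), XRCC6 (the gene whose response differed between oxygen levels), TOPBP1 (called lower at both oxygen levels), XRCC2 (the smallest called decrease, with a match to an E2F-type motif) and ATM (higher). The calls of XRCC2 and ATM at 20% O2 and of TOPBP1 at 3% O2 were lost when some single libraries were left out, as given below. Each run spans 250 bases before the transcription start and 30 after it, 5′ to 3′ on the gene's strand, from RefSeq on GRCh38.p14. The positions are chr11:119095436-119095715 (minus strand), chr22:41621045-41621324 (plus strand), chr3:133661912-133662191 (minus strand), chr7:152676112-152676391 (minus strand) and chr11:108222817-108223096 (plus strand). Capitals mark CCAAT in either orientation and the E2F-type motifs TTTCCCGC, TTTGGCGC and TTTCGCGC in either orientation.
H2AX: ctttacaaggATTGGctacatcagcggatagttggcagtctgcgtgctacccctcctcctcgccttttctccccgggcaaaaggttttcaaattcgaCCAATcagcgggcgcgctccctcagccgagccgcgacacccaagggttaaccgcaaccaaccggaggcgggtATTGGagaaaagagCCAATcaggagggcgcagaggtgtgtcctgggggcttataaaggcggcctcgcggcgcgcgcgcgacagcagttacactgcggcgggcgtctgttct
XRCC6: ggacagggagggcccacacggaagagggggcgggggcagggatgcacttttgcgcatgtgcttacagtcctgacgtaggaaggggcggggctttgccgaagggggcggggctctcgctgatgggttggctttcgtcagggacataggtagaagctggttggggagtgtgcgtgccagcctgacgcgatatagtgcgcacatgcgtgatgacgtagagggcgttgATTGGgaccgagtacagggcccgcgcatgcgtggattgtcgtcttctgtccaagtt
TOPBP1: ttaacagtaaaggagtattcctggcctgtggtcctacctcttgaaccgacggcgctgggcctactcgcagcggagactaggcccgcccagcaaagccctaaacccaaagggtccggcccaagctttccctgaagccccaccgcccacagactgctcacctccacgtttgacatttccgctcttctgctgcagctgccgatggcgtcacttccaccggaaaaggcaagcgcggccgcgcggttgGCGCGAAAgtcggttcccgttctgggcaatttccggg
XRCC2: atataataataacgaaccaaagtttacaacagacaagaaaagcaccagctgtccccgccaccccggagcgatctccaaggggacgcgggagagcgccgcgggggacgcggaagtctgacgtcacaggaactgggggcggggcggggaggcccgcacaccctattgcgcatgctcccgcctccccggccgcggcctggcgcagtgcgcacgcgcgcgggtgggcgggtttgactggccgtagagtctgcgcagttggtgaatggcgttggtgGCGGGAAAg
ATM: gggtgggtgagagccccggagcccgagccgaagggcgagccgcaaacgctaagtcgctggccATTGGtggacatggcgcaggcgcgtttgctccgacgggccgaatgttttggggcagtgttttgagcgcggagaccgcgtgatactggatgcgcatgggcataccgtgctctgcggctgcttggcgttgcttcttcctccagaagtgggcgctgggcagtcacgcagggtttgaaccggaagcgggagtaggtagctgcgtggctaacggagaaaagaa

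The H2AX promoter held 4 CCAAT matches between positions -240 and -63, counted from the first transcribed base as +1. In TOPBP1 the E2F-type match spanned the start itself, from -7 to +1, and in XRCC2 it lay at +22 to +29. XRCC6 had a CCAAT match at -26 to -22 and an E2F-type match at +43 to +50, past the end of the printed run. The printed ATM window had a single CCAAT match, at -188 to -184, and a further ATM window, of another start, held 2. Windows of 300 bases, 250 before the start to 50 after it, were found for 42 of the 48 members (61 starts). No entry matched NBN, XRCC5, RMI2, RAD54B, FANCI and PRKDC. Among the 61 windows, 6 (9.84%) held an E2F-type motif on either strand, beside 2.74% of all 35116 windows in the table, and the 6 genes were EXO1, FANCC, FANCD2, TOPBP1, XRCC2 and XRCC6. CCAAT was present in 28 of the 61 windows (45.9%), beside 34.6% of all windows. The cell cycle homology region TTTGAA was present in 4 (6.56%), beside 15.2% of all windows. By gene, CCAAT was found for 10 of the 17 members with a window that were lower on FDX2 loss at 20% O2 and for 11 of the 25 others. An E2F-type motif was found for 3 of these 17 members and for 3 of the 25 others. These counts are descriptions of letters in the windows, with no test.

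The members differed widely in level. Per kilobase of exon, in the 20% O2 + Doxy group, XRCC6 was the most abundant at 255 CPM per kb, followed by XRCC5 at 134, H2AX at 121 and PRKDC at 85.6 CPM per kb. The other members lay between 0.0582 CPM per kb (NHEJ1) and 22.3 CPM per kb (NBN, a subunit of the end-resecting MRN complex). The Ku and DNA-PKcs genes and the break mark were therefore all above every recombination and Fanconi gene on this scale.

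On FDX2 loss at 20% O2, 20 of the 47 tested members were lower and 2 were higher (edgeR's quasi-likelihood test, Benjamini-Hochberg adjusted p under 0.05 over all genes). That is 42.6% lower and 4.26% higher, beside 17.7% lower and 17.6% higher among all 16891 genes tested. The median log2 fold change over the members was -0.18, beside 0.01 for all genes, and most changes were small: H2AX was the only member called that changed by at least 2-fold, and with the GC correction its log2 fold change of -0.86 no longer reached that size. In 27 members all 3 libraries without Doxy lay under all 3 with Doxy, and in 4 all lay above, beside 25.8% and 26.5% of all genes tested. In bulk RNA, fewer cells expressing a gene and less RNA per cell cannot be told apart.

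**Figure D1:**
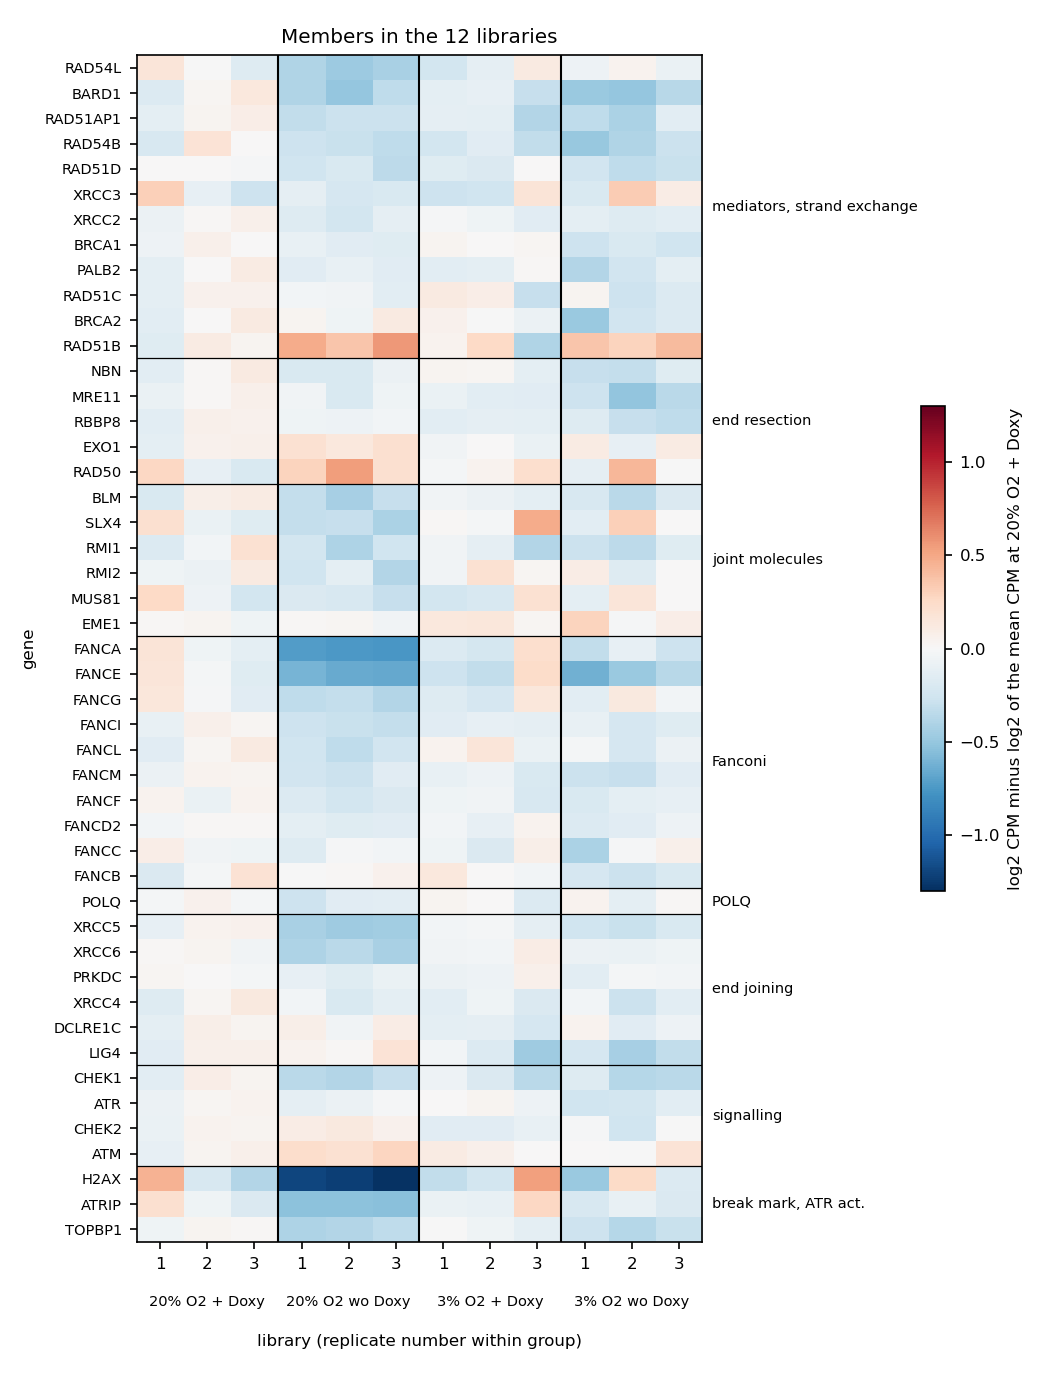
Heat map of the 47 tested members (rows, grouped by role and ordered by their change at 20% O2) in the 12 libraries (columns). Colour gives the log2 CPM minus the log2 of the gene's mean CPM in the 20% O2 + Doxy group, and the 20% O2 wo Doxy columns are bluest for H2AX, FANCA and FANCE.

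By role, all 3 genes of the break mark and ATR activation were lower. Of the 33 homologous recombination and Fanconi genes, 14 were lower and 1 was higher, with a median log2 fold change of -0.20. Of the 6 tested end joining genes 2 were lower, with a median of -0.12, and of the 4 signalling kinases 1 was lower and 1 was higher, with a median of 0.01. Without 20% O2 wo Doxy replicate 1, 7 of the 33 recombination and Fanconi genes (21.2%) and the same 2 of 6 end joining genes (33.3%) were lower, so the order of these shares turned. It also turned, at 8 or 9 of 33, without 20% O2 wo Doxy replicate 2 or 3 or 20% O2 + Doxy replicate 2 or 3. With the replicate number as a block (24.2% against 33.3%) and with DESeq2 size factors (48.5% against 50%) the order turned as well. The same held without the 3 libraries with high GC-rich genes (60.6% against 66.7%). The difference between these gene groups was not tested, because the members are not replicates of one another. In the individual libraries without Doxy at 20% O2, the group median relative to the cells with Doxy was -0.176, -0.199 and -0.176 for recombination and Fanconi genes, which left no overlap with the -0.079, 0.014 and 0.036 of the libraries with Doxy. For end joining it was -0.068, -0.177 and -0.104 without Doxy and -0.112, 0.041 and 0.046 with Doxy, so the libraries overlapped. The signalling medians, -0.007, 0.026 and 0.026 without Doxy and -0.094, 0.041 and 0.044 with Doxy, overlapped as well. In both, the overlap came from 20% O2 + Doxy replicate 1 alone (-0.112 and -0.094), 1 of the 3 libraries with high GC-rich genes. The other libraries with Doxy at 20% O2 lay above all those without Doxy.

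**Figure D2:**
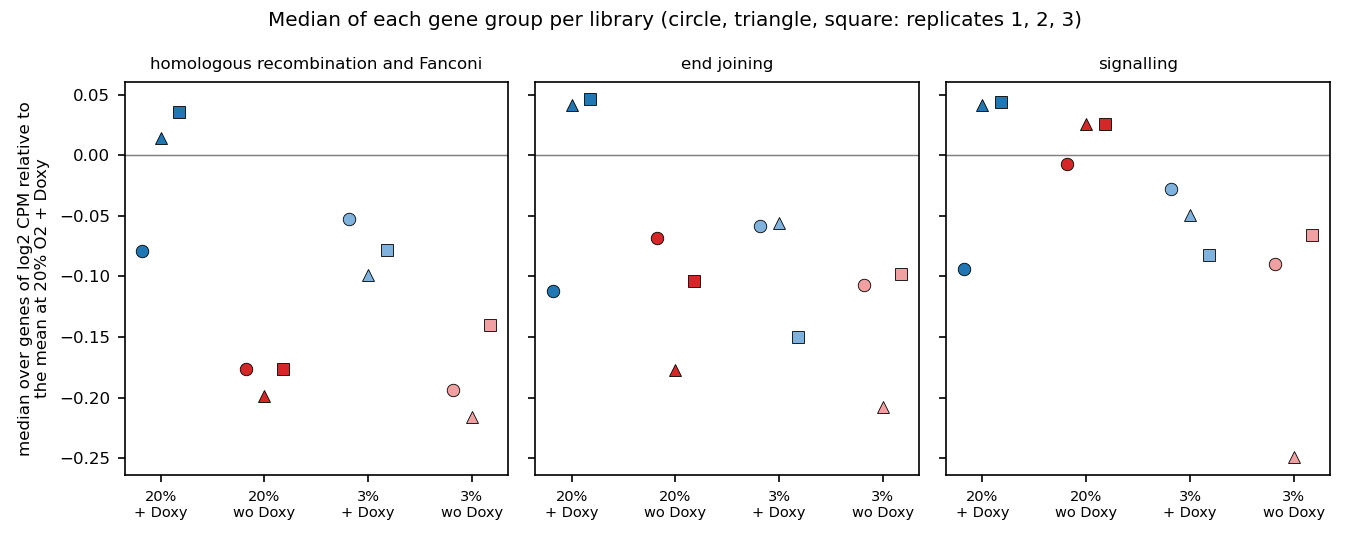
Median over the genes of a group of log2 CPM relative to the mean log2 CPM of the 20% O2 + Doxy libraries (vertical axis), for each of the 12 libraries (points, by group on the horizontal axis). For recombination and Fanconi genes the 20% O2 wo Doxy libraries sit between -0.199 and -0.176, under all libraries with Doxy, whereas those of end joining and signalling overlap with them. At 20% O2 this overlap of end joining and signalling comes from + Doxy replicate 1 alone, a library with high GC-rich genes.

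Among the 12 mediator and strand exchange genes, 6 were lower and 1 was higher. RAD54L, a DNA translocase of strand exchange, had the most negative change. Its level was 64.0, 57.0 and 51.2 CPM with Doxy and 43.7, 41.5 and 42.9 CPM without Doxy (57.4 ± 6.41 and 42.7 ± 1.12 CPM, mean ± SD, n = 3 each). All 3 libraries without Doxy were lower (log2 fold change -0.43, SE 0.0976, adjusted p = 0.0059 from edgeR). BARD1, the partner of BRCA1 in its ubiquitin ligase, fell by 0.41 on the log2 scale, and RAD51AP1, RAD54B, RAD51D and XRCC2 fell by 0.29, 0.29, 0.26 and 0.17. RAD54B is a homologue of RAD54L. Without 20% O2 wo Doxy replicate 1 the lower calls were 3, those of BARD1, RAD51D and RAD54L. RAD51AP1, RAD54B and XRCC2 also lost their calls without 20% O2 wo Doxy replicate 2 or 20% O2 + Doxy replicate 2 or 3, and RAD51AP1 and RAD54B without 20% O2 wo Doxy replicate 3 as well. RAD54B was no longer called in 12 of the alternatives, XRCC2 in 8 and RAD51AP1 in 6. RAD51B, a mediator of strand exchange, went the other way: it was at 7.22, 8.66 and 8.20 CPM with Doxy and at 11.2, 10.3 and 11.9 CPM without Doxy, with no overlap (log2 fold change 0.47, SE 0.139, adjusted p = 0.0216 from edgeR). RAD54B shares 59.1% of its exonic bases with FSBP on the same strand, and RAD54L shares 25.1% with LRRC41 on the other strand. The RAD51B call was lost when 20% O2 + Doxy replicate 1 (adjusted p = 0.0888) or 20% O2 wo Doxy replicate 1 or 3 (adjusted p = 0.0652 and 0.107) was left out. BRCA1, PALB2 and BRCA2, which act together as mediators, had log2 fold changes of -0.13 (adjusted p = 0.053), -0.13 and 0.03 in edgeR's test and did not pass it. BRCA1 was called by DESeq2 (adjusted p = 0.0111) and by edgeR with the GC correction (adjusted p = 0.034). XRCC3, which was not called (log2 fold change -0.18, adjusted p = 0.458 from edgeR), turned to 0.12 with the GC correction and was then called higher (adjusted p = 0.0324). It shares 76.7% of its exonic bases with KLC1 on the other strand, and the strand setting of the counting is not given in the sources used here.

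None of the 5 end resection genes passed the test at 20% O2 in edgeR, and 1 of them, the nuclease gene EXO1, had an unadjusted p under 0.05 (log2 fold change 0.18, adjusted p = 0.0662). DESeq2 called none of them either. With the GC correction edgeR called NBN lower (log2 fold change -0.19, adjusted p = 0.000758) and EXO1 higher (0.18, adjusted p = 0.00368). Without the 3 libraries with high GC-rich genes it called both of them and RAD50 (0.50, adjusted p = 0.0159), and without 20% O2 + Doxy replicate 1 alone it called NBN (adjusted p = 0.0368). NBN was at 124.2, 138.6 and 148.3 CPM with Doxy and at 119.2, 119.1 and 129.9 CPM without Doxy, so the groups overlapped (log2 fold change -0.16, SE 0.0771, 95% interval -0.33 to 0.01). RAD50, its partner in the MRN complex, was at 4.89, 3.77 and 3.53 CPM with Doxy and at 4.97, 5.91 and 4.68 CPM without Doxy (log2 fold change 0.35, SE 0.173, 95% interval -0.03 to 0.73). The deposited RAD50 counts are uncertain, since 79.7% of its exonic bases are shared with another annotated gene on the same strand.

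Of the 6 genes that process joint molecules, edgeR called BLM, the RecQ helicase that dissolves double Holliday junctions with RMI1 and RMI2. BLM was at 34.8, 42.0 and 42.8 CPM with Doxy and at 32.2, 29.5 and 32.3 CPM without Doxy (log2 fold change -0.35, SE 0.0825, adjusted p = 0.00744 from edgeR). Its groups did not overlap. SLX4, RMI1, RMI2 and MUS81 had log2 fold changes from -0.34 to -0.23 with adjusted p of 0.107, 0.0542, 0.0964 and 0.228 in edgeR. RMI1 was called lower by DESeq2 (adjusted p = 0.0364), by edgeR with no filter on low counts (adjusted p = 0.0343) and by edgeR with the GC correction (log2 fold change -0.34, adjusted p = 0.000229). SLX4 was called in the edgeR fit of the 6 libraries at 20% O2 alone (adjusted p = 0.0285). EME1, the partner of the MUS81 nuclease, was at 44.7, 45.2 and 42.5 CPM with Doxy and at 44.7, 45.0 and 42.8 CPM without Doxy, and the 95% interval of its log2 fold change was -0.16 to 0.17.

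Of the 10 Fanconi genes, 7 were lower and none was higher (median log2 fold change -0.25). Without 20% O2 wo Doxy replicate 1, 3 of the 10 were lower (FANCA, FANCE and FANCI). FANCA, a subunit of the core ubiquitin ligase complex, was at 170.4, 145.3 and 138.4 CPM with Doxy and at 91.8, 90.4 and 89.3 CPM without Doxy (151 ± 16.8 and 90.5 ± 1.25 CPM, mean ± SD, n = 3 each). Every library without Doxy was far under the lowest library with Doxy (log2 fold change -0.74, SE 0.117, adjusted p = 0.000596 from edgeR), and the fold change ran from -0.81 to -0.61 over the alternatives. FANCE, which links the core complex to FANCD2, fell by 0.64, and the other core subunits FANCG, FANCL and FANCF fell by 0.34, 0.28 and 0.20. With the GC correction FANCG was at -0.17, a value smaller by over 1.5 times. FANCL is the catalytic subunit of the ligase. FANCI, which forms the ligase's substrate together with FANCD2, fell by 0.29 and the translocase FANCM by 0.22. FANCF and FANCL each lost their call when any 1 of 5 libraries of the 20% O2 groups was left out (adjusted p = 0.0514 to 0.0732 and 0.0571 to 0.0879 in edgeR), and FANCG and FANCM when any 1 of 4 was (adjusted p = 0.0603 to 0.0776 and 0.0574 to 0.0941). FANCD2, the other substrate, had a log2 fold change of -0.14 and an adjusted p of 0.0531 in edgeR, and was called by DESeq2 (adjusted p = 0.00977) and with the GC correction (adjusted p = 0.0314). The most positive value in the group belonged to FANCB, which was at 9.17, 10.3 and 11.9 CPM with Doxy and at 10.4, 10.6 and 10.9 CPM without Doxy (log2 fold change 0.02, 95% interval -0.19 to 0.23). FANCA shares 23.6% of its exonic bases with ZNF276 on the opposite strand, and the strand setting of the counting is not given in the sources used here.

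POLQ, the polymerase of the theta-mediated end joining route, was at 41.1, 43.4 and 41.1 CPM with Doxy and at 34.7, 37.9 and 38.2 CPM without Doxy. The groups did not overlap, but the change did not pass the test (log2 fold change -0.18, SE 0.0716, adjusted p = 0.0697 from edgeR). It was called lower in edgeR with the GC correction (-0.19, adjusted p = 0.0113), without 3% O2 + Doxy replicate 3 (adjusted p = 0.0299) and without the 3 libraries with high GC-rich genes (adjusted p = 0.0129).

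In end joining, edgeR called the 2 Ku genes among the 6 genes tested. XRCC5 (Ku80) was at 679.7, 757.2 and 759.4 CPM with Doxy and at 545.6, 533.1 and 534.8 CPM without Doxy (log2 fold change -0.45, SE 0.0516, adjusted p = 7.24e-05 from edgeR). XRCC6 (Ku70) was at 845.6, 855.5 and 811.7 CPM with Doxy and at 635.3, 655.5 and 626.1 CPM without Doxy (log2 fold change -0.39, SE 0.0453, adjusted p = 7.26e-05 from edgeR). Both fell to about the same fraction of the level with Doxy, 0.735 for XRCC5 and 0.763 for XRCC6, with no overlap between groups. XRCC6 has 5 annotated pseudogene copies that could share its reads.

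The other end joining genes did not pass edgeR's test. PRKDC was at 1339.2, 1323.7 and 1298.4 CPM with Doxy and at 1225.3, 1185.4 and 1244.5 CPM without Doxy, a non-overlapping difference of -0.12 on the log2 scale (SE 0.0485, adjusted p = 0.0864 from edgeR). It was called lower by DESeq2 (adjusted p = 0.0201), by edgeR with DESeq2 size factors (adjusted p = 0.0488), without 3% O2 + Doxy replicate 3 (adjusted p = 0.0358) and without the 3 libraries with high GC-rich genes (adjusted p = 0.0255). XRCC4 was at 15, 17.1 and 18.3 CPM with Doxy and at 16.4, 14.6 and 15.4 CPM without Doxy (95% interval of the log2 fold change -0.31 to 0.07), and was called lower without the 3 libraries with high GC-rich genes (-0.21, adjusted p = 0.048). LIG4, the ligase that XRCC4 holds, was at 22.5, 26.1 and 26.1 CPM with Doxy and at 25.7, 25.2 and 28.1 CPM without Doxy (95% interval -0.15 to 0.31). These groups overlapped, as did those of the end-processing nuclease Artemis, DCLRE1C. It was at 8.28, 9.53 and 9.23 CPM with Doxy and at 9.50, 8.76 and 9.62 CPM without Doxy (95% interval -0.14 to 0.23).

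The signalling kinases moved in different directions. CHEK1, the effector kinase downstream of ATR, was at 38.6, 45.2 and 43.6 CPM with Doxy and at 33.3, 32.7 and 34.6 CPM without Doxy (log2 fold change -0.34, SE 0.0862, adjusted p = 0.0105 from edgeR). ATM was at 81.1, 89.8 and 91.8 CPM with Doxy and at 102.5, 100.7 and 106.2 CPM without Doxy (log2 fold change 0.24, SE 0.0659, adjusted p = 0.0171 from edgeR). Neither pair of groups overlapped. The ATM call was lost without 20% O2 + Doxy replicate 1 (adjusted p = 0.072), without any 1 of the 3 libraries of 20% O2 wo Doxy (adjusted p = 0.0581 to 0.126) and with no filter on low counts (adjusted p = 0.0972). The CHEK1 call was lost without 20% O2 wo Doxy replicate 1 (adjusted p = 0.0535). ATR was at 97.4, 104.1 and 105.6 CPM with Doxy and at 94.5, 97.1 and 101.4 CPM without Doxy, and CHEK2, the effector of ATM, was at 17.3, 18.9 and 18.8 CPM with Doxy and at 19.6, 20.0 and 19.1 CPM without Doxy. Their log2 fold changes of -0.07 and 0.10 had adjusted p of 0.388 and 0.331 in edgeR.

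All 3 genes of the break mark and ATR activation fell at 20% O2. H2AX was at 266.6, 168.2 and 150.0 CPM with Doxy and at 85.5, 83.7 and 79.9 CPM without Doxy (195 ± 62.7 and 83.0 ± 2.86 CPM, mean ± SD, n = 3 each). The wide spread with Doxy came from replicate 1, and even the lowest library with Doxy was above the highest without (log2 fold change -1.23, SE 0.271, adjusted p = 0.00479 from edgeR). TOPBP1, which activates ATR at stalled forks, was at 105.5, 112.3 and 111.0 CPM with Doxy and at 83.2, 84.3 and 87.4 CPM without Doxy (log2 fold change -0.37, SE 0.0516, adjusted p = 0.000278 from edgeR). ATRIP, the obligate partner of ATR, fell by 0.54. With the GC correction ATRIP was at -0.35, a value smaller by over 1.5 times, and H2AX at -0.86. H2AX had the highest GC content of all members, at 66.4%. ATRIP (58.7%), FANCG (58.1%), FANCE (57.9%) and FANCA (55.4%) were GC-rich too. ATRIP shares 27.9% of its exonic bases with TREX1.

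After the GC correction of the 20% O2 comparison, 25 members were lower and 4 were higher, beside 20.3% and 26.1% of all genes, and all 22 members called without the correction were among them. Without the 3 libraries with high GC-rich genes, all 22 were again called, together with 11 others. That made 29 lower and 4 higher, beside 22.8% and 19.7% of all genes in that fit. When 20% O2 wo Doxy replicate 1 was left out, 12 members remained called. The share of all genes in that fit is not given here, so this fall is not set against a background.

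**Figure D3:**
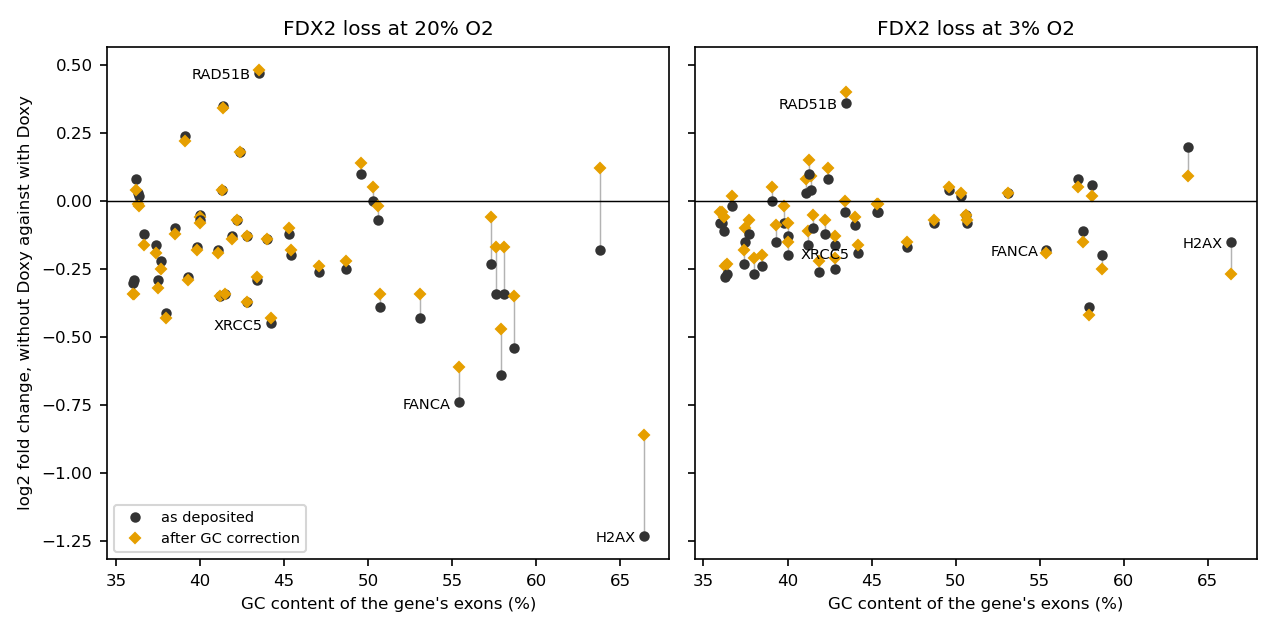
Log2 fold change on FDX2 loss (vertical axis) against the GC content of each member's exons in percent (horizontal axis) at 20% O2 (left) and 3% O2 (right), from the deposited counts (circles) and after the GC correction (diamonds). At 20% O2 H2AX moves from -1.23 to -0.86 and FANCA from -0.74 to -0.61, and both stay under 0.

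Genes of the cell cycle moved in the same comparison. Of 39 tested S-phase genes that are not members, 34 were lower and none was higher (median log2 fold change -0.42), and their summed level was 5007.3 to 5090.1 CPM with Doxy and 3519.4 to 3552.5 CPM without Doxy at 20% O2. Of 54 G2/M genes 52 were lower and none was higher (median -0.73), with sums of 12140.8 to 12207.1 CPM with Doxy and 7236.4 to 7314.1 CPM without Doxy. None of these genes had 0 counts in a whole group. Their part in the decrease of the recombination and Fanconi genes was not tested.

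Other genes of the same pathways were read from fixed lists. Of 28 further recombination and Fanconi genes, 26 were tested, 8 were lower and 3 were higher at 20% O2 (30.8% and 11.5%). Among all genes tested, 17.7% were lower and 17.6% were higher. FAAP100, a partner of FANCB and FANCL in the core complex, fell by 0.73 (SE 0.236, adjusted p = 0.0324 from edgeR), and ZSWIM7, a subunit of the Shu complex, rose by 0.49 (SE 0.147, adjusted p = 0.0246 from edgeR). Of 18 further end joining and single-strand break genes 5 were lower and 1 was higher (27.8% and 5.56%). PARP1, the poly(ADP-ribose) polymerase that senses breaks, fell by 0.69 (SE 0.0552, adjusted p = 5.27e-06 from edgeR), and so did POLM, a gap-filling polymerase (0.69, SE 0.119, adjusted p = 0.00107 from edgeR). Of 21 further checkpoint genes 7 were lower and 2 were higher (33.3% and 9.52%). WEE1, the kinase that holds CDK1 inactive, fell by 0.78 (SE 0.0689, adjusted p = 1.06e-05 from edgeR), and CDC25C, the phosphatase that opposes it, fell by 0.67 (SE 0.0785, adjusted p = 7.81e-05 from edgeR).

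At 3% O2 few members passed the test on FDX2 loss. Of 47, 2 were lower and none was higher (4.26% lower), beside 3.11% lower and 4.2% higher among all genes tested, so the share of lower members was near the background. In 15 members all 3 libraries without Doxy lay under all 3 with Doxy, and in 1 all lay above, beside 11.2% and 13.4% of all genes tested. The medians over recombination and Fanconi genes in the single libraries, on the scale used at 20% O2, did not overlap: they were -0.194, -0.216 and -0.140 without Doxy and -0.053, -0.099 and -0.078 with Doxy. In all, 12 members had an unadjusted p under 0.05, and the median log2 fold change was -0.10, beside 0.04 for all genes. The lower genes were BRCA1 and TOPBP1. BRCA1 was at 95.1, 93.1 and 94.2 CPM with Doxy and at 77.1, 81.0 and 77.6 CPM without Doxy (94.1 ± 1.01 and 78.6 ± 2.11 CPM, mean ± SD, n = 3 each). The groups were far apart (log2 fold change -0.26, SE 0.0485, adjusted p = 0.00954 from edgeR). TOPBP1 was at 109.2, 105.7 and 100.5 CPM with Doxy and at 90.9, 84.8 and 89.4 CPM without Doxy (log2 fold change -0.25, SE 0.0516, adjusted p = 0.0154 from edgeR), again with no overlap. The TOPBP1 call was lost without 3% O2 + Doxy replicate 1 or 2 (adjusted p = 0.0629 and 0.0727) and without 3% O2 wo Doxy replicate 2 (adjusted p = 0.0649), and both calls in the fit of the 6 libraries at 3% O2 alone (adjusted p = 0.0685 for BRCA1 and 0.106 for TOPBP1).

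Other members at 3% O2 were described by their values. The Ku genes were at 712.9, 720.8 and 675.0 CPM with Doxy and 610.6, 599.7 and 639.7 CPM without Doxy for XRCC5 (log2 fold change -0.19, adjusted p = 0.0505 from edgeR). XRCC6 was at 812.4, 818.5 and 893.6 CPM with Doxy and at 795.9, 790.0 and 803.5 CPM without Doxy (log2 fold change -0.08, adjusted p = 0.32 from edgeR). H2AX overlapped between groups, at 156.6, 165.1 and 282.7 CPM with Doxy and 139.4, 231.4 and 172.5 CPM without Doxy, and the 95% interval of its log2 fold change, -0.74 to 0.43, was the widest of the members. Its highest library in each group was one of those with high GC-rich genes. FANCA overlapped too, at 134.0, 129.0 and 175.8 CPM with Doxy and 121.2, 140.9 and 125.6 CPM without Doxy (log2 fold change -0.18, 95% interval -0.43 to 0.08). RAD51B was at 8.29, 9.59 and 6.14 CPM with Doxy and at 10.3, 9.80 and 10.7 CPM without Doxy, with no overlap but no call (log2 fold change 0.36, adjusted p = 0.149 from edgeR).

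edgeR called none of the 4 signalling kinases at 3% O2. ATR alone had an unadjusted p under 0.05, and DESeq2 called it. ATM was at 94.2, 91.8 and 87.8 CPM with Doxy and at 87.6, 87.3 and 99.0 CPM without Doxy. ATR was at 102.7, 105.2 and 97.6 CPM with Doxy and at 85.5, 86.5 and 93.2 CPM without Doxy (log2 fold change -0.20, adjusted p = 0.0535 from edgeR). Its groups did not overlap, whereas those of ATM did. CHEK1 and CHEK2 had log2 fold changes of -0.10 and 0.04 with adjusted p of 0.539 and 0.755 in edgeR. Among the remaining end joining genes, PRKDC, XRCC4, LIG4 and DCLRE1C had log2 fold changes of -0.04, -0.02, -0.11 and 0.10, with 95% intervals that all included 0. DESeq2 called XRCC5 as the only end joining gene at 3% O2.

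**Figure D4:**
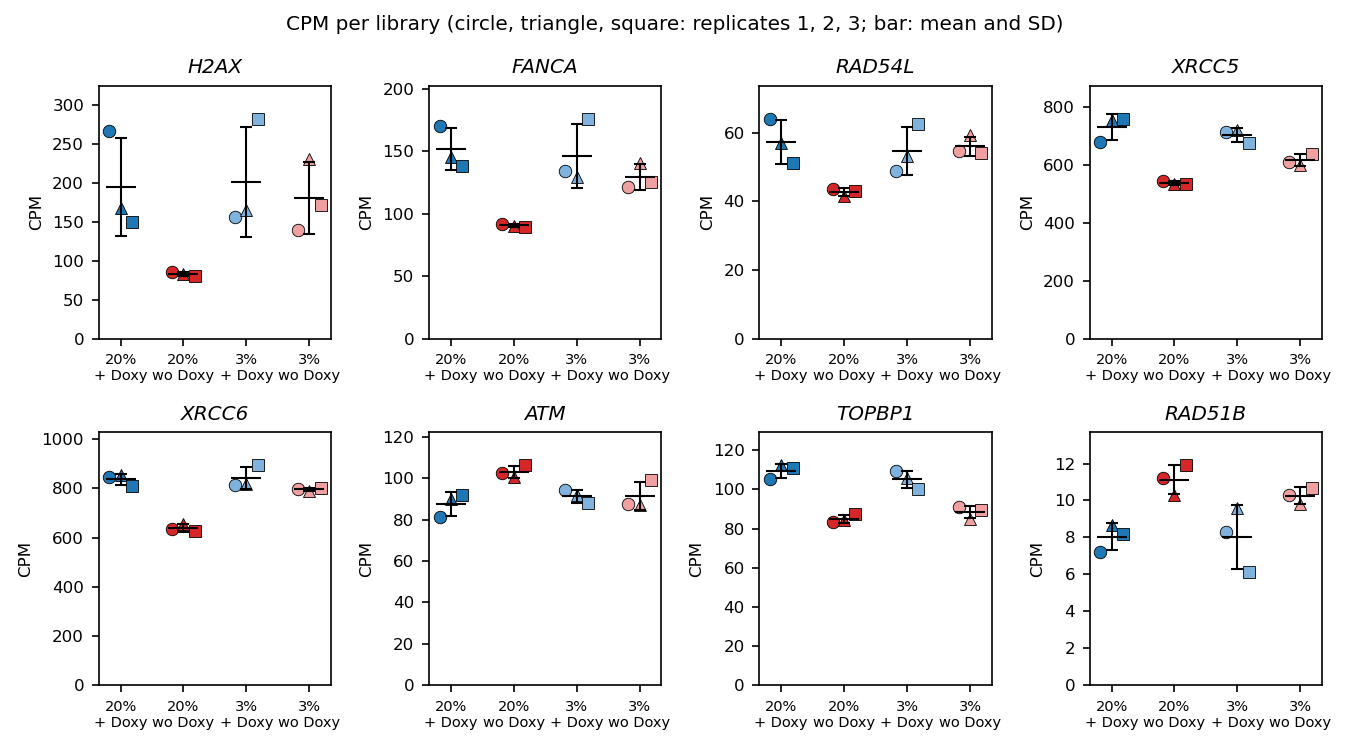
CPM (vertical axis, starting at 0) of 8 members in the 4 groups (horizontal axis), with a marker for each replicate and a bar for the mean and SD of the 3 libraries. At 20% O2 wo Doxy all 3 libraries are lowest for H2AX, FANCA, RAD54L, XRCC5 and XRCC6, and ATM and RAD51B are higher there than at 20% O2 + Doxy.

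This count depended on the processing. With the GC correction 13 members were lower and 1 was higher at 3% O2, beside 8.66% and 10.6% of all genes, and the genes added were BARD1, BRCA2, MRE11, NBN, FANCA, FANCB, FANCE, XRCC5, ATR, H2AX and ATRIP among the lower ones and RAD51B as the higher one. Without the 3 libraries with high GC-rich genes 7 were lower, and the share of all genes in that fit is not given here. In the edgeR fit of the 6 libraries at 3% O2 alone no member was called, with 13 at an unadjusted p under 0.05. At 3% O2 the S-phase genes were also lower on FDX2 loss (20 of 39, none higher, median -0.26; 4675.3 to 4753.0 CPM summed with Doxy and 3912.2 to 4021.6 CPM without), as were the G2/M genes (25 of 54, none higher, median -0.25; 12111.7 to 12833.1 and 10201.3 to 10525.0 CPM).

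Whether FDX2 loss acted differently at the 2 oxygen levels was tested as an interaction. XRCC6 was the only member called: its decrease at 20% O2 was larger than at 3% O2 by 0.31 on the log2 scale (SE 0.064, adjusted p = 0.0161 from edgeR). That is 2.13% of the members, beside 3.21% of all genes with a higher and 4.08% with a lower response at 3% O2, and 1 call at that background is no result about the members as a group. Calls of other members were near the threshold, with XRCC5 at 0.26 (adjusted p = 0.0596), FANCA at 0.56 (0.0651), FANCI at 0.25 (0.0676) and RAD54L at 0.46 (0.0707) in edgeR's test. FANCI was at 143.3, 147.6 and 146.7 CPM in 3% O2 + Doxy and at 148.3, 136.1 and 142.5 CPM in 3% O2 wo Doxy, against 148.6, 165.8 and 161.5 CPM and 132.1, 129.6 and 127.8 CPM at 20% O2. H2AX had the largest difference, 1.08, with a 95% interval of 0.25 to 1.91 and an adjusted p of 0.114. With the GC correction 15 members had a higher response at 3% O2 and none a lower one, beside 8.73% and 9.58% of all genes. The call of XRCC6 was lost without 20% O2 wo Doxy replicate 1 or replicate 3 (adjusted p = 0.052 and 0.0525), with the replicate number as a block (adjusted p = 0.0534) and with no filter on low counts (adjusted p = 0.116).

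Pathway genes outside the list were tested for the same interaction. PARP1 and WEE1 were lower at 3% O2 as well, by 0.28 and 0.31 on the log2 scale (adjusted p = 0.0113 and 0.0222 from edgeR). Their decrease was larger at 20% O2 by 0.41 for PARP1 (SE 0.0777, adjusted p = 0.0112 from edgeR) and by 0.47 for WEE1 (SE 0.097, adjusted p = 0.0163 from edgeR). CDC25C also had a larger decrease at 20% O2, by 0.42 (SE 0.111, adjusted p = 0.0446 from edgeR). Over the 3 fixed lists, the interaction was called for 0 of 26 recombination and Fanconi genes (6 at an unadjusted p under 0.05). It was called for 1 of 18 end joining genes, with a higher response at 3% O2. Of 21 checkpoint genes 3 were called, 2 with a higher and 1 with a lower response at 3% O2. Among all genes tested, 3.21% had a higher and 4.08% a lower response at 3% O2. In the cell cycle lists the decrease was larger at 20% O2 for 13 of 39 S-phase genes and 36 of 54 G2/M genes, and smaller for none. Their part in the response of XRCC6 was not tested.

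Between oxygen levels with Doxy present, no member passed the test. edgeR called 0 of 47, with 4 at an unadjusted p under 0.05 (CHEK1, FANCI, RAD51AP1 and RAD54B, all with a negative log2 fold change), and DESeq2 also called 0. Among all genes tested, 2.02% passed in either direction. The log2 fold changes of the Ku genes were -0.06 (XRCC5, 95% interval -0.17 to 0.05) and 0.01 (XRCC6, -0.09 to 0.11), and that of BRCA1 was 0.02 (-0.08 to 0.13).

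Without Doxy, 4 members were lower and 7 were higher at 3% than at 20% O2 (8.51% and 14.9%), beside 11.9% and 13.9% of all genes tested. These libraries are the same 20% O2 wo Doxy and 3% O2 wo Doxy libraries as in the comparisons above, so the values share their samples. The higher genes were H2AX (log2 fold change 1.12), FANCA (0.51), RAD54L (0.39), ATRIP (0.38), FANCG (0.33), XRCC6 (0.32) and XRCC5 (0.20). The lower ones were LIG4 (-0.40), BRCA2 (-0.33), MRE11 (-0.27), the nuclease of the MRN complex, and RBBP8 (-0.21), which encodes the resection factor CtIP. GC content was 66.4, 55.4, 53.1, 58.7, 58.1, 50.7 and 44.2% in the higher genes, in that order. In the lower ones it was 36.2, 36.3, 38.5 and 40%. Relative to GC-poor genes, GC-rich genes stood higher in all 3% O2 wo Doxy libraries than in all 20% O2 wo Doxy libraries. This cannot be told apart from the oxygen level. In LIG4 the 3% O2 wo Doxy libraries, at 21.4, 18.4 and 19.9 CPM, were all under those of 20% O2. The median over recombination and Fanconi genes was 0.00, over end joining 0.01 and over signalling -0.16, beside 0.06 for all genes.

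The labels state no pairing of libraries, but same-numbered libraries of these 2 groups deviated together. Their correlations were 0.19 to 0.497 and those of other numbers -0.473 to 0.231, so the ranges overlapped. A block on the replicate number thus rests on a pairing taken from these data. With the replicate number as a block in a fit of the 6 libraries without Doxy, all 11 calls were kept and SLX4, ATM and ATR were added, beside 14.1% lower and 17% higher among all genes in that fit. With the block in the fit of all 12 libraries RBBP8, FANCG and ATRIP were lost. After the GC correction 2 members were lower and 15 were higher, beside 15.9% and 17.2% of all genes, and the calls of BRCA2, MRE11, RBBP8 and FANCG were lost, with log2 fold changes of -0.16, -0.14, -0.10 and 0.09. The correction also made the differences of ATRIP (0.12), H2AX (0.67), FANCA (0.33) and LIG4 (-0.23) smaller by over 1.5 times, and these calls remained. The call of H2AX was lost without 3% O2 wo Doxy replicate 2 (log2 fold change 0.91, adjusted p = 0.0524), and 4 of the 11 calls remained without 20% O2 wo Doxy replicate 1, without its replicate 3 or without 3% O2 wo Doxy replicate 2.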

How the data were processed

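RNA-seq counts of 12 libraries (4 groups, 3 replicates each) were used. The authors deposited counts of reads per gene, not normalized, and the submitters' processing notes name STAR, featureCounts, DESeq2 and GRCh38, and the strand setting is not given in the sources used here. All 58735 gene identifiers matched GENCODE 29. Groups came from the sample labels, every column was used, and whether replicates came from separate cultures is not stated in the labels, so p-values measure the spread between these libraries.

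Counts were tested with edgeR 4.0.16 (R 4.3.3; TMM normalization, filterByExpr with a minimum count of 10 and total of 15, quasi-likelihood test, 1 mean per group, 8 residual degrees of freedom), and p-values were Benjamini-Hochberg adjusted over all 16891 genes (threshold 0.05). Fold changes are log2 with the standard error of the fit. CPM are counts scaled to TMM-adjusted library totals. The GC correction took each library's lowess trend (span 0.3) of log2 CPM on exonic GC content out as an offset. Alternatives were DESeq2 1.42.0, other filters, a replicate block and leaving out each library. S-phase and G2/M lists came from Seurat 5.3.0. The fit was checked on simulated counts. Same-numbered libraries deviated together only in 20% O2 wo Doxy with 3% O2 wo Doxy (all 3 correlations of deviations 0.19 to 0.497, other numbers -0.473 to 0.231), so the pairing there comes from the data. With 24958386 to 34313637 counts per library, intervals reflect library spread.

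The members, gene lists and alternatives were chosen with earlier results of these data known. Named in full were, per role, the most negative and most positive change at 20% O2, all end joining and signalling members and members called in the interaction, and per list of other pathway genes the 2 called genes of largest change. Per-library values of FANCI, BRCA1 and of members at 3% O2 were added after values were seen, as were the printed promoters.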

Additional observations from a re-analysis of the deposited data

Results flagged for a closer look

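The response of XRCC6, the Ku70 gene, to FDX2 loss differed between oxygen levels by the interaction term of the fit. Its log2 fold change was -0.39 at 20% O2 and -0.08 at 3% O2, a difference of 0.31 (SE 0.064, adjusted p = 0.0161 over all genes, edgeR). All 3 libraries without Doxy lay under those with Doxy at both oxygen levels. Over the alternatives the difference ran from 0.27 to 0.36 and stayed positive. It was no longer past the threshold without 20% O2 wo Doxy replicate 1 or replicate 3, with the replicate block and with no filter on low counts (adjusted p = 0.052 to 0.116).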

How the results depend on the processing

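Shares of all genes are given above for the main fits and for those with the GC correction alone. They are also given for the block in the 6 libraries without Doxy, and for 20% O2 without the 3 libraries with high GC-rich genes. The counts of all other fits, including those without single libraries, have no background beside them. They are therefore no result about the members as a group. On FDX2 loss at 20% O2 the number of members called (22) ran from 12 to 28 when single libraries were left out, and was lowest without 20% O2 wo Doxy replicate 1. The group medians there moved by less than the spread between replicates under every alternative run. On FDX2 loss at 3% O2 the count (2) became 4 with DESeq2 size factors, 8 with the DESeq2 Wald test, 1 with the replicate block, 14 with the GC correction, 11 with both, 0 in the fit of the compared groups alone and 7 without the 3 libraries with high GC-rich genes. Leaving out single libraries gave 1 to 8, with 8 without 20% O2 + Doxy replicate 1, 5 without 3% O2 + Doxy replicate 3, and 1 without 3% O2 + Doxy replicate 1 or 2 or 3% O2 wo Doxy replicate 2. The recombination and Fanconi median at 3% O2 (-0.11) became -0.07 with the GC correction, with or without the block. Between oxygen levels with Doxy the end joining median (-0.09) ran from -0.17 to -0.05 when single libraries were left out.

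Between oxygen levels without Doxy the count (11) became 17 with the GC correction and 19 without the 3 libraries, and ran from 4 to 14 when single libraries were left out, with 7 without 20% O2 wo Doxy replicate 2 or 3% O2 wo Doxy replicate 3. With the GC correction, alone or with the block, the medians there became 0.06 (recombination and Fanconi), 0.11 (end joining) and -0.04 (signalling). The count for the interaction (1) became 0 with no filter or with the replicate block, 3 with at least 10 counts in every library, 6 with DESeq2, 15 with the GC correction, 11 with both and 9 without the 3 libraries, and it ran from 0 to 6 when single libraries were left out: 6 without 3% O2 + Doxy replicate 3, 3 without 20% O2 + Doxy replicate 1, 2 without its replicate 3, and 0 without 20% O2 wo Doxy replicate 1 or 3. Without the 3 libraries the interaction medians became 0.16 for end joining and -0.03 for signalling.

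Signs turned for 6 members at 20% O2, none of which was called as reported. XRCC3 went from -0.18 to 0.12 with the GC correction, where it was called, and with the block added, where it was not. BRCA2 (0.03) went to -0.01 with no filter and with the GC correction, alone or with the block, and to -0.04 without the 3 libraries and at the lowest when single libraries were left out. DCLRE1C went to -0.02 without the 3 libraries and ran from -0.03 to 0.08 when single libraries were left out. EME1 went to -0.01 with DESeq2 or its size factors, to -0.03 with no filter and ran from -0.03 to 0.02 when single libraries were left out. FANCB went to -0.02 with no filter and with the GC correction, alone or with the block, to -0.08 without the 3 libraries and ran from -0.08 to 0.12 when single libraries were left out. LIG4 went to 0.00 without the 3 libraries and without 20% O2 + Doxy replicate 1. The causes were not tested. Leaving out the 3 libraries together was chosen after seeing the data. Outside the groups whose same-numbered libraries deviated together, the block gave 16 calls at 20% O2, down from 22. Those of RAD51AP1, XRCC2, RAD54B, FANCF, FANCG and FANCL were lost. With the block the 1 call at 3% O2 was BRCA1. In each of the 5 other pairings of groups at least 1 same-number correlation was under 0.1. NHEJ1, with 1 to 12 counts per library, was below what this depth can test.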
